A study of Mus musculus with 6 samples.

Results

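De novo lipogenesis genes encode the enzymes that build fatty acids from acetyl-CoA, the reductant supply they draw on, and the transcription factors that drive them. The 10 genes *Acly*, *Acaca*, *Acacb*, *Fasn*, *Scd1*, *Elovl6*, *Me1*, *Thrsp*, *Srebf1*, and *Mlxipl* were chosen by gene symbol. The choice was made with earlier results of these data known, and each symbol matched 1 of the 55491 genes in the table. RNA from IWAT (inguinal white adipose tissue) was sequenced as 1 library per mouse in 3 *Ebf2*+/+ and 3 *Ebf2*E165X/+ male mice aged 4 weeks and fed regular chow. The sequenced mice of both genotypes are labelled C57BL/6J. *Ebf2*E165X/+ mice carry, on 1 of their 2 *Ebf2* alleles, a nonsense change made by CRISPR/Cas9 knock-in, and *Ebf2*+/+ mice carry none. Founders came from eggs of B6SJLF1 hybrid mice and were bred to C57BL/6J mice. The knock-in was thus present in every tissue and from before birth, and differences arising in adipocytes cannot be told apart from those arising elsewhere. Effects of any hybrid sequence remaining near the edited allele cannot be told apart from those of the nonsense change. The libraries held between 106820505 and 135039488 counts, and all 10 genes had 10 or more counts in each of them, so that the number of mice, more than counting, limits the precision.

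Cytosolic citrate is cleaved to acetyl-CoA, carboxylated to malonyl-CoA, and polymerized to palmitate, which is then elongated and desaturated. The carboxylation step is the committed step of the pathway, and the NADPH comes from malic enzyme and the pentose phosphate pathway. SREBP-1c, encoded by *Srebf1*, carries the insulin signal to these genes, and ChREBP, encoded by *Mlxipl*, carries the glucose signal. White fat is one of the main sites of the pathway in mice, and its transcripts respond to feeding.

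Levels are given as CPM, the count of a gene brought to a common library size after TMM scaling (trimmed mean of M values), and are compared between libraries and not between genes. *Ebf2* itself had 38.3, 41.3, and 37.2 CPM in *Ebf2*+/+ mice 1, 2, and 3 and 22.8, 22.9, and 21.1 CPM in *Ebf2*E165X/+ mice 1, 2, and 3, with no overlap between the genotypes. Its log2 fold change was −0.81 ± 0.076 (SE), with an adjusted *P* of 0.0596 by edgeR's quasi-likelihood test, not under the threshold of 0.05. By DESeq2 the adjusted *P* was 1.23e-13, and by edgeR without *Ebf2*E165X/+ mouse 3 it was 0.0423, both under the threshold. Adipocyte markers were plentiful in all 6 libraries, where the 10 marker genes, of which *Lpl* (lipoprotein lipase) had the most counts, made up 1.35% to 2.38% of counts.

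Some libraries stood apart in markers of other cell types. The 8 skeletal muscle markers, of which *Myh4* (a fast muscle myosin) had the most counts, made up 0.158%, 0.672%, and 0.255% of counts in *Ebf2*+/+ mice 1, 2, and 3 and 0.292%, 0.0701%, and 3.66% in *Ebf2*E165X/+ mice 1, 2, and 3. *Ebf2*E165X/+ mouse 3 was thus far above the rest in muscle transcripts, and it also had the lowest share of adipocyte markers. The 7 keratinocyte and epithelial markers, of which *Krt10* had the most counts, made up 0.0137%, 0.000703%, and 0.00604% of counts in *Ebf2*+/+ mice 1, 2, and 3 and 0.00516%, 0.000711%, and 0.00106% in *Ebf2*E165X/+ mice 1, 2, and 3. This sum was carried by the epidermal keratins *Krt10*, *Krt5*, and *Krt14*, in which *Ebf2*+/+ mice 1 and 3 and *Ebf2*E165X/+ mouse 1 were high. The simple epithelial keratins *Krt8* and *Krt18* were instead highest in *Ebf2*E165X/+ mouse 3, at 2.25 CPM and 1.01 CPM, and lowest in *Ebf2*+/+ mouse 1, at 0.0749 CPM and 0.0916 CPM. None of the muscle or epithelial markers was at 0 counts in any library. The 8 B and T cell markers made up 0.0386%, 0.0587%, and 0.0609% of counts in *Ebf2*+/+ mice 1, 2, and 3. In *Ebf2*E165X/+ mice 1, 2, and 3 their share was 0.0658%, 0.0752%, and 0.0609%, so *Ebf2*+/+ mouse 1 was the lowest. All 8 had a higher mean in *Ebf2*E165X/+ libraries, with a median log2 fold change of 0.26 and 0 at an unadjusted *P* under 0.05 by edgeR. In bulk tissue, fewer cells of a type and less RNA per cell cannot be told apart.

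All 10 lipogenesis genes had a lower mean in *Ebf2*E165X/+ than in *Ebf2*+/+ IWAT, with log2 fold changes from −1.28 for *Acly* to −0.46 for *Srebf1* and a median of −0.93. The median over all 32664 genes tested was 0.014, and of the 18905 better covered genes, with 10 or more counts in each library, 43.9% had a log2 fold change below 0. None of the 10 genes passed an adjusted *P* of 0.05 by edgeR's quasi-likelihood test with a fold change above 1.5, a pair of thresholds that only 3 of all genes tested (0.00918%) passed. Before adjustment, 8 of the 10 were lower at a *P* under 0.05, against 3.09% of all genes tested and 4.21% of the better covered genes. There were 5 of the 10 that did not overlap between the genotypes, against 5.75% of all genes tested and 6.78% of the better covered genes. These 5 were *Acacb*, *Scd1*, *Mlxipl*, *Srebf1*, and *Me1*. The 10 genes were chosen with earlier results of these data known, and all 10 ranked the *Ebf2*+/+ libraries in the same order. They are thus not independent, and these counts are a description and no test of enrichment. Single libraries moved these counts. The 8 became 2 without *Ebf2*+/+ mouse 1, 4 without *Ebf2*E165X/+ mouse 1, and 3 without *Ebf2*E165X/+ mouse 3, while the 5 became 10 without mouse 2 of either genotype. The median log2 fold change was −0.53 without *Ebf2*+/+ mouse 1, and the 3 genes called in all became 1 without *Ebf2*+/+ mouse 2 and 11 without *Ebf2*E165X/+ mouse 3. DESeq2, which called 0.535% of its genes as lower at the same thresholds, called 2 of the 10, *Acacb* and *Scd1*. The 10 genes together made up 3.04% ± 1.08 (SD, n = 3) of counts in *Ebf2*+/+ and 1.74% ± 0.296 (SD, n = 3) in *Ebf2*E165X/+ libraries.

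**Figure D1:**
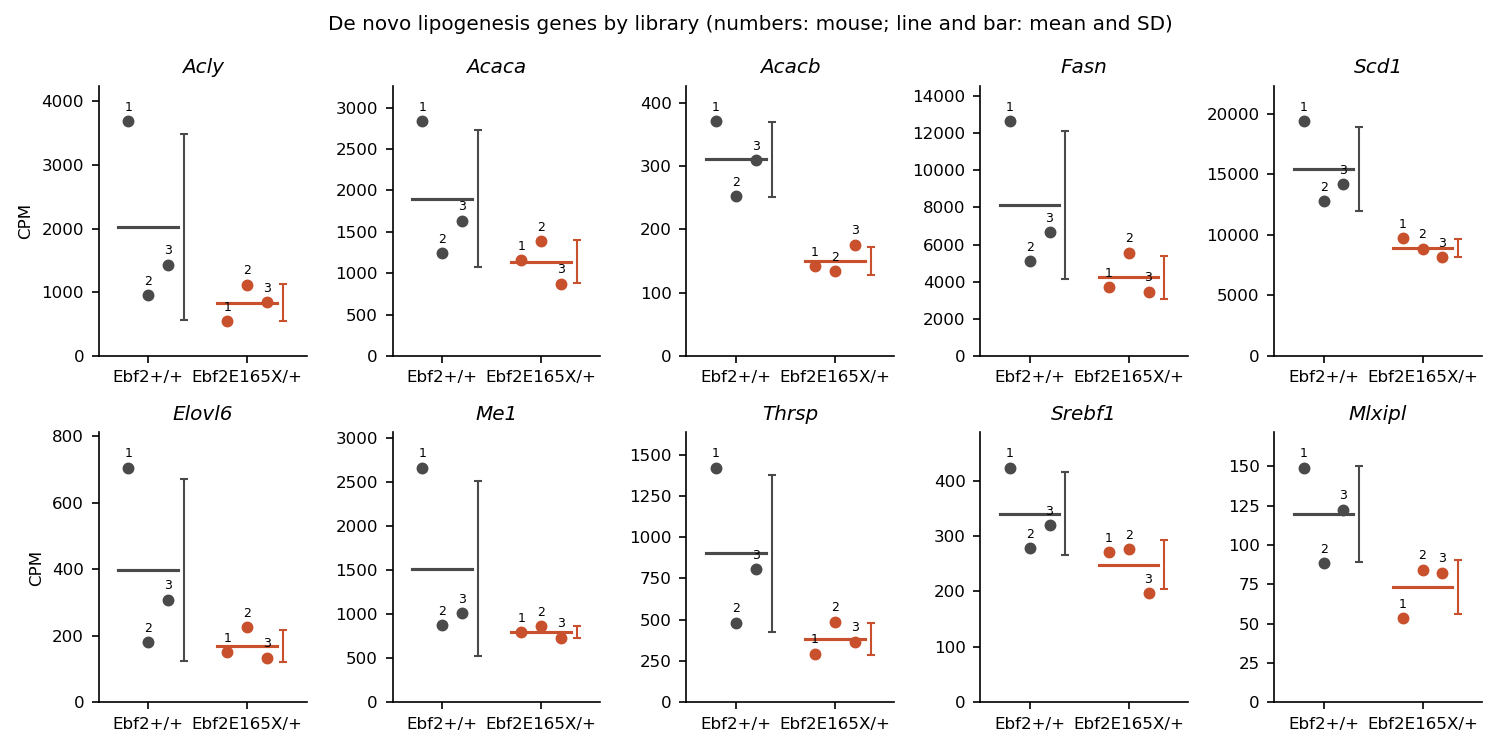
CPM of each of the 10 lipogenesis genes in the 3 *Ebf2*+/+ (grey) and 3 *Ebf2*E165X/+ (red) libraries, numbered by mouse, with each axis starting at 0, a horizontal line at the mean and a bar for the SD. *Ebf2*+/+ mouse 1 is the highest point in all 10 plots, and *Acacb* and *Scd1* leave the clearest gap between the genotypes.

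*Acacb* showed the clearest separation. It encodes acetyl-CoA carboxylase 2, whose malonyl-CoA is known mainly for restraining fatty acid entry into mitochondria, and it lies on chromosome 5 (chr5:114146535-114250761, GRCm38, plus strand). Its level was 371, 252, and 309 CPM in *Ebf2*+/+ mice 1, 2, and 3 and 142, 134, and 176 CPM in *Ebf2*E165X/+ mice 1, 2, and 3. The highest *Ebf2*E165X/+ library was well below the lowest *Ebf2*+/+ library. The log2 fold change was −1.05 ± 0.167 (SE), a mean 2.06-fold lower, with a 95% interval from −1.44 to −0.66. By edgeR's quasi-likelihood test the unadjusted *P* was 0.000313, rank 29 among all genes tested, and the adjusted *P* was 0.353. DESeq2 gave an adjusted *P* of 3.72e-07. Each library left out in turn moved the log2 fold change only between −1.19 and −0.91.

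*Acaca*, on chromosome 11 (chr11:84129672-84401651, GRCm38, plus strand), encodes acetyl-CoA carboxylase 1, which makes the malonyl-CoA used for synthesis. It had 2838, 1239, and 1633 CPM in the 3 *Ebf2*+/+ mice and 1157, 1387, and 874 CPM in the 3 *Ebf2*E165X/+ mice. Here the genotypes overlapped, since *Ebf2*E165X/+ mouse 2 lay above *Ebf2*+/+ mouse 2. Its log2 fold change was −0.74 ± 0.325 (SE), and the 95% interval, from −1.5 to 0.02, included 0.

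*Acly*, which encodes the ATP-citrate lyase that provides cytosolic acetyl-CoA (chr11:100476353-100528000, GRCm38, minus strand), had the lowest log2 fold change of the 10 with all 6 libraries and also the widest spread. It was at 3689.5, 949.8, and 1433 CPM in *Ebf2*+/+ mice 1, 2, and 3 and at 543, 1119, and 846 CPM in *Ebf2*E165X/+ mice 1, 2, and 3. *Ebf2*+/+ mouse 1 was 3.88-fold above *Ebf2*+/+ mouse 2, a gap wider than the one between the genotype means, and *Ebf2*E165X/+ mouse 2 again lay above *Ebf2*+/+ mouse 2. The log2 fold change of −1.28 ± 0.507 (SE) had a 95% interval from −2.46 to −0.09, and without *Ebf2*+/+ mouse 1 it was −0.53 ± 0.322 (SE), nearer 0 than that of *Acacb*, *Thrsp*, and *Scd1*.

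*Fasn* encodes fatty acid synthase, which assembles palmitate (chr11:120805846-120824547, GRCm38, minus strand). Its level was 12648, 5101, and 6659.6 CPM in *Ebf2*+/+ mice and 3701, 5554, and 3454 CPM in *Ebf2*E165X/+ mice, in the order of mouse number. The values overlapped through mouse 2 of each genotype. The difference was −0.94 ± 0.389 (SE) on the log2 scale, with a 95% interval from −1.85 to −0.03.

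*Scd1*, the stearoyl-CoA desaturase that introduces the first double bond (chr19:44394455-44407879, GRCm38, minus strand), separated the genotypes completely. It was measured at 19364.5, 12748, and 14183 CPM in *Ebf2*+/+ mice 1, 2, and 3 and at 9704, 8830.1, and 8168 CPM in *Ebf2*E165X/+ mice 1, 2, and 3. All *Ebf2*E165X/+ libraries lay below all *Ebf2*+/+ libraries, and they stayed close to each other, with a coefficient of variation of 8.66% against 22.6% in *Ebf2*+/+. The difference was −0.79 ± 0.288 (SE) on the log2 scale, with a 95% interval from −1.47 to −0.12. By edgeR's quasi-likelihood test its adjusted *P* was 0.783, as it was for the 8 other genes besides *Acacb*, and by DESeq2 it was 0.000489. *Scd1* has close paralogs, *Scd2* to *Scd4*, so that the split of shared reads among them is uncertain.

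*Elovl6* encodes the elongase that extends palmitate to stearate (chr3:129532355-129638495, GRCm38, plus strand). Its level was 706, 182, and 309 CPM in the 3 *Ebf2*+/+ mice and 151, 226, and 134 CPM in the 3 *Ebf2*E165X/+ mice. *Ebf2*+/+ mouse 1 was 3.89-fold above *Ebf2*+/+ mouse 2, and the genotypes overlapped. The log2 fold change was −1.23 ± 0.464 (SE), with a 95% interval from −2.31 to −0.15.

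*Me1*, cytosolic malic enzyme (chr9:86581371-86695953, GRCm38, minus strand), supplies NADPH for synthesis. *Ebf2*+/+ mice 1, 2, and 3 had 2661, 876, and 1013 CPM and *Ebf2*E165X/+ mice 1, 2, and 3 had 798, 863, and 736 CPM. The genotypes did not overlap, but *Ebf2*+/+ mouse 2 and *Ebf2*E165X/+ mouse 2 were nearly level, and most of the difference in means lay in *Ebf2*+/+ mouse 1. Between genotypes the log2 fold change was −0.92 ± 0.405 (SE), with a 95% interval from −1.87 to 0.02. Without *Ebf2*+/+ mouse 1 it was −0.26 ± 0.139 (SE).

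*Thrsp* encodes the Spot 14 protein, a regulator of lipogenesis named for its response to thyroid hormone (chr7:97412938-97417730, GRCm38, minus strand). It was at 1420.4, 484, and 806 CPM in *Ebf2*+/+ mice and at 296, 488, and 368 CPM in *Ebf2*E165X/+ mice, in the order of mouse number. Mouse 2 of each genotype had almost the same level, which produced the overlap. The log2 fold change was −1.23 ± 0.379 (SE), with a 95% interval from −2.12 to −0.35, and the unadjusted *P* of 0.0126 by edgeR was the second smallest of the 10.

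The genes of both transcription factors followed the same direction. *Srebf1* (chr11:60199089-60222581, GRCm38, minus strand) had 423, 278, and 319.8 CPM in *Ebf2*+/+ mice 1, 2, and 3 and 270.4, 276, and 197 CPM in *Ebf2*E165X/+ mice 1, 2, and 3. The groups did not overlap, though *Ebf2*+/+ mouse 2 and *Ebf2*E165X/+ mouse 2 were almost equal. Its log2 fold change, −0.46 ± 0.192 (SE), was the nearest to 0 of the 10 with all 6 libraries, with a 95% interval from −0.90 to −0.01. *Mlxipl* (chr5:135089890-135138382, GRCm38, plus strand) had 149, 88.4, and 123 CPM in *Ebf2*+/+ mice 1, 2, and 3 and 53.4, 84.3, and 82.5 CPM in *Ebf2*E165X/+ mice 1, 2, and 3. All *Ebf2*E165X/+ libraries were lower than all *Ebf2*+/+ libraries, by a narrow margin in mouse 2 of each genotype. This gave a log2 fold change of −0.71 ± 0.23 (SE), with a 95% interval from −1.25 to −0.17. The annotation places exons of other genes on the opposite strand over exons of *Elovl6*, *Srebf1*, *Mlxipl*, and *Me1* (for *Srebf1*, *Rai1*). Over *Srebf1* exons it also places *Mir6922* on the same strand, an overlap that does not depend on strand use. Whether counting used strand is not given in the sources used here, so these 4 counts are less certain than the rest.

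Because the 10 genes were lower together, the bases before their start sites were searched for 4 motifs on both strands. The RefSeq promoter table (GRCm38.p6) held 13 start sites for 9 of the 10 genes, with no entry for *Scd1*. For *Acaca* and *Acacb* it held only an internal start site, so the bases before the annotated start of either gene were not searched. The *Acacb* window also overlaps an exon of that gene. The motifs were the E-box CACGTG, a core of the element bound by ChREBP and other basic helix-loop-helix factors, the sterol regulatory element TCACNCCAC bound by SREBP, the CCAAT box bound by NF-Y, and the EBF core CCCNNGGG. In the 250 bases before the start, CCAAT occurred for 6 of the 9 genes (*Acacb*, *Fasn*, *Me1*, *Mlxipl*, *Srebf1*, and *Thrsp*) and in 33.8% of all 32851 promoters, and the EBF core occurred for 4 (*Elovl6*, *Me1*, *Mlxipl*, and *Srebf1*) and in 11.8% of all promoters. The E-box and the sterol regulatory element were found for *Mlxipl* alone, and in 6.02% and 1.05% of all promoters. Counted per start site, 7 of 13 held CCAAT and 4 of 13 the EBF core. The EBF core used here is looser than CCCWNGGG, with A or T at W, which the study lists for EBF1 and EBF2 in stromal cells. The matches of *Mlxipl* and *Me1* have only C or G in the middle, and those of *Elovl6* and *Srebf1* have an A there. Matches are to letters only, and binding was not measured in these libraries.

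Windows of both transcription factor genes and of *Fasn* are shown 5′ to 3′ on the strand of the gene, with matches in capitals. Between them they hold all 4 motifs, and none of them overlaps an annotated exon. The first *Mlxipl* window (chr5:135089640-135089889, GRCm38.p6, plus strand) lies outside annotated genes just before the gene's first exon, and from left to right its capitals mark overlapping EBF core matches from 230 bases before the start, a CCAAT box on the opposite strand at 173, and the E-box at 98. The second (chr5:135106641-135106890, GRCm38.p6, plus strand) lies before an internal start site of the gene, outside its annotated exons, and its capitals mark the sterol regulatory element at 136. Of 3 *Srebf1* windows, the one before the gene's first exon held a CCAAT box at 166 alone and another held no match, and the one with the most matches is shown, so its matches are not typical of the gene's start sites. It (chr11:60210472-60210721, GRCm38.p6, minus strand) lies in the gene but outside exons, with a CCAAT box on the opposite strand at 30 and an EBF core at 12. The *Fasn* window (chr11:120824548-120824797, GRCm38.p6, minus strand) lies outside annotated genes, and its capitals mark CCAAT boxes at 90, 62, and 59, the last pair overlapping on opposite strands.
Mlxipl, first window: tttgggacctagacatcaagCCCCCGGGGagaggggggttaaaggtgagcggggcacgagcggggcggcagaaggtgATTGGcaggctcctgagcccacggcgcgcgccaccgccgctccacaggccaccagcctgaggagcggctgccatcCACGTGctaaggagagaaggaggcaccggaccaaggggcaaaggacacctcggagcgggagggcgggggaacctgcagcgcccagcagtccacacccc
Mlxipl, second window: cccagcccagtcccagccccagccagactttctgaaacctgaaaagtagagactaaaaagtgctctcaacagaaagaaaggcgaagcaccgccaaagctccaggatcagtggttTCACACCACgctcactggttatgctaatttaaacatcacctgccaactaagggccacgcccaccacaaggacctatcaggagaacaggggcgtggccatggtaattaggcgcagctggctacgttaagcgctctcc
Srebf1: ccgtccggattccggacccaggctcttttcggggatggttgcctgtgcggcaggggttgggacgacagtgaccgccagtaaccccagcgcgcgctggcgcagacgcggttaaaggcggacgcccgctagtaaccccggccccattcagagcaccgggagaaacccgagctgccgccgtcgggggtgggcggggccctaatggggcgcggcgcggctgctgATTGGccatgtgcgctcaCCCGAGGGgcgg
Fasn: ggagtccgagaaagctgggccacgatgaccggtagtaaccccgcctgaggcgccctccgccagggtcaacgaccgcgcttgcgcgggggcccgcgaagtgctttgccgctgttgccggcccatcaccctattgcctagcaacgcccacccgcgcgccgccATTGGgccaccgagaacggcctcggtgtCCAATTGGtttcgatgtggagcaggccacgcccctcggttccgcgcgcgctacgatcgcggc

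Library by library, the 10 genes kept nearly the same order. In all 10, *Ebf2*+/+ mouse 1 was the highest of the 6 libraries, followed within the genotype by mouse 3 and then mouse 2. Among *Ebf2*E165X/+ libraries, mouse 2 was the highest for 8 genes, mouse 1 for *Scd1*, and mouse 3 for *Acacb*. In the 5 genes that overlapped, the only *Ebf2*E165X/+ value above the lowest *Ebf2*+/+ value was that of mouse 2. All *Ebf2*E165X/+ values were below the *Ebf2*+/+ mean in all 10 genes. Averaged over the 10 genes, and with the *Ebf2*+/+ mean set to 0, log2 CPM was 0.67, −0.54, and −0.12 in *Ebf2*+/+ mice 1, 2, and 3 and −0.99, −0.61, and −0.95 in *Ebf2*E165X/+ mice 1, 2, and 3. The spread among *Ebf2*+/+ mice was thus wider than that among *Ebf2*E165X/+ mice, and *Ebf2*+/+ mouse 2 and *Ebf2*E165X/+ mouse 2 were nearly equal. Of the single genes, *Fasn* lay closest to this average, with a root mean square distance of 0.109 on the log2 scale, and *Acly*, *Acacb*, and *Srebf1* lay farthest, at 0.333, 0.307, and 0.305.

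**Figure D2:**
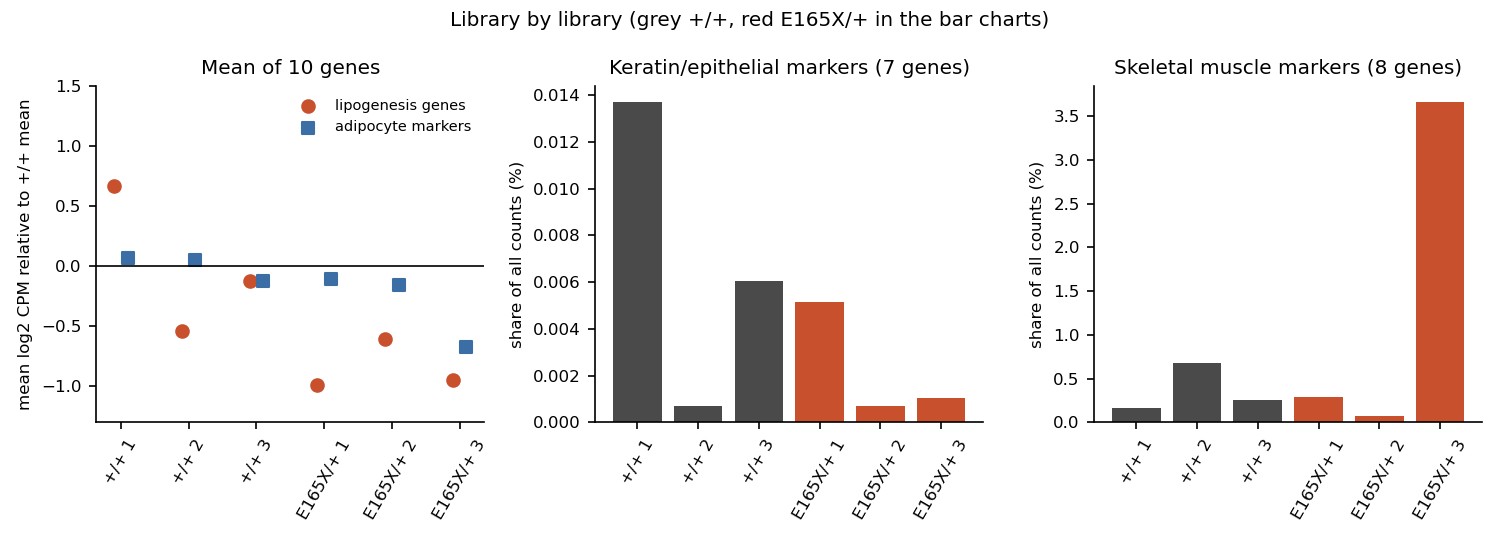
Left, mean log2 CPM of the 10 lipogenesis genes (red circles) and 10 adipocyte markers (blue squares) in each library, relative to the *Ebf2*+/+ mean. Centre and right, share of all counts (%) in 7 epithelial and 8 skeletal muscle markers, as bars from 0, grey for *Ebf2*+/+ and red for *Ebf2*E165X/+. The lipogenesis genes run from 0.67 to −0.99, while the adipocyte markers stay between 0.07 and −0.16 except in *Ebf2*E165X/+ mouse 3 (−0.67), where muscle markers reach 3.66%.

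The general adipocyte markers had smaller differences. All 10 were lower in mean in *Ebf2*E165X/+ libraries, with log2 fold changes from −0.42 to −0.08 and a median of −0.28, and none had an unadjusted *P* under 0.05 by edgeR. Only *Adipoq* (adiponectin) and *Lipe* (hormone-sensitive lipase) did not overlap. *Adipoq* had 1190.4, 1303, and 1199 CPM in *Ebf2*+/+ mice and 1172, 1054, and 819.8 CPM in *Ebf2*E165X/+ mice, a log2 fold change of −0.28 ± 0.166 (SE), and *Lipe* differed by −0.27 ± 0.158 (SE). Without *Ebf2*E165X/+ mouse 3, the library high in muscle transcripts, these were −0.15 and −0.13. The other markers were *Pparg* (−0.42), *Fabp4* (−0.42), *Retn* (−0.42), *Lep* (−0.28), *Plin1* (−0.26), *Lpl* (−0.24), *Cidec* (−0.15), and *Cfd* (−0.08), each as a log2 fold change. Without *Ebf2*E165X/+ mouse 3 they were −0.20 for *Pparg*, −0.26 for *Fabp4*, −0.24 for *Retn*, −0.21 for *Lep*, −0.12 for *Plin1*, −0.05 for *Lpl*, 0.05 for *Cidec*, and 0.11 for *Cfd*. The value of *Lep* moved most between the other libraries, from −0.02 without *Ebf2*E165X/+ mouse 1 to −0.69 without *Ebf2*E165X/+ mouse 2, and without *Ebf2*E165X/+ mouse 1 those of *Pparg*, *Cidec*, and *Lpl* were −0.81, −0.47, and −0.38. Without *Ebf2*+/+ mouse 1, *Retn* was at −0.20 and *Lep* at −0.11. In *Ebf2*E165X/+ mouse 3 the mean of the 10 markers was −0.67 relative to the *Ebf2*+/+ mean, and in the other 5 libraries it lay between −0.16 and 0.07. With each lipogenesis gene taken relative to these markers in its own library, the median log2 difference was −0.51 and none of the 10 separated the genotypes. *Acacb* and *Scd1* overlapped through *Ebf2*E165X/+ mouse 3 alone, the library with the low marker mean. There they were at −0.13 and −0.22, against lowest *Ebf2*+/+ values of −0.33 and −0.30. The other lipogenesis genes also overlapped through *Ebf2*E165X/+ mouse 2. The part of the adipocyte markers in the difference was not tested further. The 10 brown and beige markers, which include *Cidea* and *Elovl3*, had a median log2 fold change of −1.18, lower than that of the lipogenesis genes. All 10 had a lower mean, 6 had an unadjusted *P* under 0.05 by edgeR, 4 did not overlap, 1 (*Cidea*) was called by edgeR, and 4 were called by DESeq2. Over all genes tested, 3.09% were lower at that *P* by edgeR, 5.75% were lower without overlap, and 0.00918% were called. DESeq2 called 0.535% of its genes as lower. Relative to the *Ebf2*+/+ mean, these markers averaged −2.06, −2.26, and −1.23 (log2) in *Ebf2*E165X/+ mice 1, 2, and 3. The value nearest 0 was that of the library high in muscle transcripts. In that library *Cpt1b*, *Cox7a1*, and *Ppargc1a* were at their highest, at 71.6, 21.7, and 14.7 CPM, and the rest of the list was not. The part of muscle or epithelial RNA in this list was not tested.

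**Figure D3:**
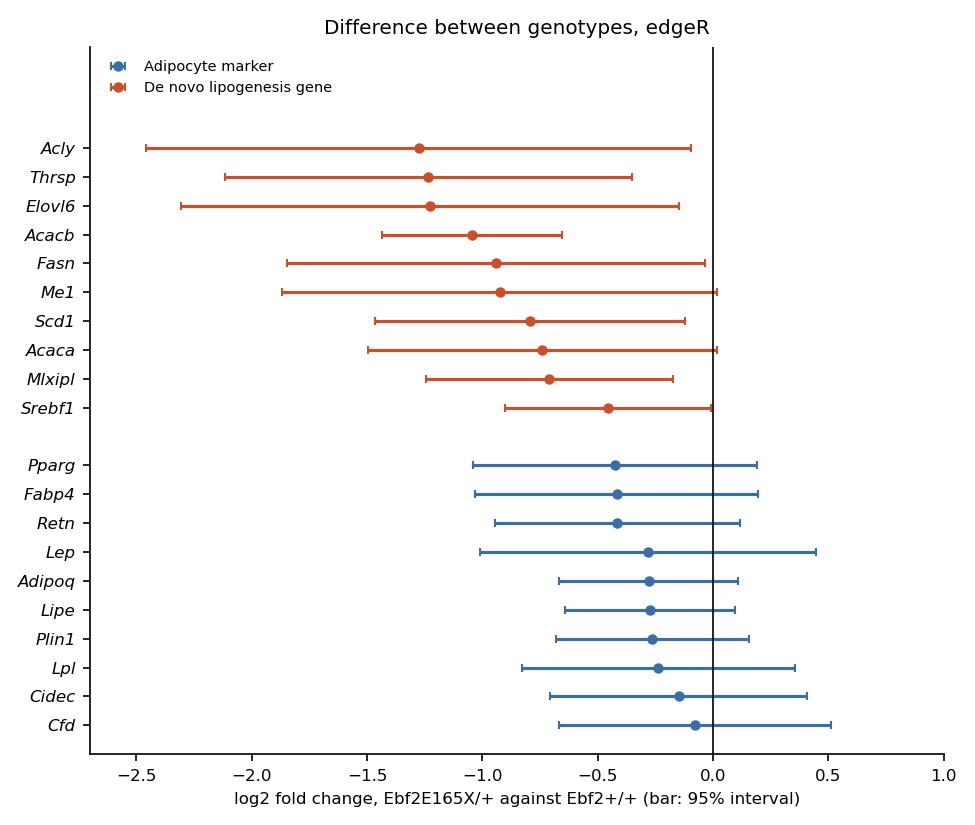
Log2 fold change between genotypes (*Ebf2*E165X/+ against *Ebf2*+/+, edgeR) of the 10 lipogenesis genes (red) and the 10 adipocyte markers (blue), with points for estimates and bars for 95% intervals. The intervals of 8 lipogenesis genes lie below 0, those of *Acaca* and *Me1* end at 0.02, and those of all 10 adipocyte markers include 0.

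The size of the difference depended on which libraries entered. Without *Ebf2*+/+ mouse 1, the library highest in both the lipogenesis genes and the epidermal keratins, log2 fold changes ran from −0.91 for *Acacb* to −0.26 for *Me1*, with a median of −0.53, and only *Acacb* (unadjusted *P* = 0.000796 by edgeR) and *Thrsp* (0.0311) had an unadjusted *P* under 0.05. The log2 fold change without that library was −0.76 for *Thrsp*, −0.61 for *Scd1*, −0.54 for both *Elovl6* and *Mlxipl*, −0.49 for *Fasn*, −0.35 for *Acaca*, and −0.28 for *Srebf1*. *Ebf2*E165X/+ mouse 1 was also high in epidermal keratins but had the lowest level of *Acly*, *Thrsp*, and *Mlxipl*. Among the libraries low in epidermal keratins, *Ebf2*+/+ mouse 2 and *Ebf2*E165X/+ mice 2 and 3, the log2 fold change was −0.73 for *Acacb* and −0.61 for *Scd1*. It lay between −0.26 and 0.02 for the other 8. That comparison sets 1 *Ebf2*+/+ library, the lowest of its genotype for all 10 genes, against 2 and is given as a description only. Keeping only that library favours values nearer 0, so no conclusion is drawn from them. Leaving out *Ebf2*E165X/+ mouse 3, the library high in muscle transcripts, gave a median of −0.84, and 3 of the 10 then had an unadjusted *P* under 0.05 by edgeR. The part of epithelial or muscle RNA in the lipogenesis values was not tested.

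Genes that feed the pathway were mostly lower in mean as well. Of 19 genes that supply carbon and NADPH, 15 had a lower mean in *Ebf2*E165X/+ libraries, 6 at an unadjusted *P* under 0.05 by edgeR, with a median log2 fold change of −0.36, and 1 was higher at that threshold. Over all genes the share lower at that threshold was 3.09%, and among the better covered genes it was 4.21%, with 43.9% below 0, which are the shares to read the counts of the next lists against. *Acss2*, cytosolic acetyl-CoA synthetase, which makes acetyl-CoA from acetate, had 563, 187, and 249 CPM in *Ebf2*+/+ mice 1, 2, and 3 and 143, 178, and 162 CPM in *Ebf2*E165X/+ mice 1, 2, and 3. It did not overlap, and the largest value was again that of *Ebf2*+/+ mouse 1. Its log2 fold change was −1.05 ± 0.375 (SE), and −0.45 without that library. The pentose phosphate enzymes *Tkt* (transketolase, −0.75), *Taldo1* (transaldolase, −0.44), and *Pgls* (6-phosphogluconolactonase, −0.28), the mitochondrial *Pdhb* (a pyruvate dehydrogenase subunit, −0.58), and *Cs* (citrate synthase, −0.39) made up the rest of the 6, each value a log2 fold change. Without *Ebf2*+/+ mouse 1 these values were −0.32 for *Tkt*, −0.29 for *Taldo1*, −0.22 for *Pgls*, −0.29 for *Pdhb*, and −0.32 for *Cs*. *Pklr*, the liver and red cell pyruvate kinase, was the 1 higher gene, with 7 to 19 counts in *Ebf2*+/+ and 22 to 63 in *Ebf2*E165X/+ libraries. *Me3*, a mitochondrial malic enzyme (1.11 ± 0.961, SE, log2), and *Aldoa*, a glycolytic enzyme also known from muscle (0.49 ± 0.581, SE, log2), were higher in mean through *Ebf2*E165X/+ mouse 3 alone, where *Aldoa* reached 4121 CPM against 843 to 1691 CPM in the other 5 libraries.

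Other desaturases and elongation enzymes had a median log2 fold change of −0.29 over 18 genes. Of these, 13 had a lower mean, 3 were lower without overlap, and 2 had an unadjusted *P* under 0.05 by edgeR. They were *Hsd17b12* and *Hacd2*, which act in the reduction and dehydration steps of chain elongation, with log2 fold changes of −0.44 ± 0.176 (SE) and −0.44 ± 0.127 (SE), and both separated the genotypes. Without *Ebf2*+/+ mouse 1 they were at −0.28 and −0.38. *Scd2*, with the most counts of the list, had 832, 256, and 393 CPM in *Ebf2*+/+ mice and 169, 342, and 310.5 CPM in *Ebf2*E165X/+ mice. It overlapped between the genotypes (−0.85 ± 0.441, SE, log2, and −0.26 without *Ebf2*+/+ mouse 1). *Elovl3*, an elongase of brown and beige fat, differed most (−1.69 ± 0.836, SE, log2) but was under 2 CPM in every library. The genotypes overlapped, and its log2 fold change was −1.24 without *Ebf2*+/+ mouse 1 and −2.98 without *Ebf2*E165X/+ mouse 1. Its level was highest in the libraries high in epidermal keratins, *Ebf2*+/+ mice 1 and 3 and *Ebf2*E165X/+ mouse 1.

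Among regulators of SREBP, 10 genes had a median log2 fold change of −0.04, and 2 were lower at an unadjusted *P* under 0.05 by edgeR. *Insig1*, which retains SREBP in the endoplasmic reticulum and is itself an SREBP target, had 284, 151, and 302 CPM in *Ebf2*+/+ mice 1, 2, and 3 and 133, 159, and 126 CPM in *Ebf2*E165X/+ mice 1, 2, and 3. Its log2 fold change was −0.82 ± 0.249 (SE), with an adjusted *P* of 0.783 by edgeR and 0.0413 by DESeq2, and mouse 2 of each genotype again overlapped. *Lpin1*, a phosphatidate phosphatase, differed by −0.43 ± 0.158 (SE) on the log2 scale without overlap, and by −0.27 without *Ebf2*+/+ mouse 1. *Srebf2* (−0.06), *Scap* (−0.01), and the LXR genes *Nr1h3* (−0.14) and *Nr1h2* (0.03) had small log2 fold changes.

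None of 6 genes for ChREBP partners and targets had an unadjusted *P* under 0.05 by edgeR, and their median log2 fold change was −0.06. They included *Mlx*, the obligate partner of ChREBP (−0.26 ± 0.140, SE, log2, and −0.09 without *Ebf2*+/+ mouse 1), and *Txnip*, a glucose-responsive target (−0.13 ± 0.261, SE, log2). Of 13 regulators of acetyl-CoA carboxylase and enzymes of malonyl-CoA use, 9 had a lower mean and 4 an unadjusted *P* under 0.05 by edgeR, and the median log2 fold change was −0.15. *Mid1ip1*, a relative of *Thrsp* that promotes polymerization of acetyl-CoA carboxylase, had 100.4, 42.7, and 45.1 CPM in *Ebf2*+/+ mice 1, 2, and 3 and 29.3, 39.8, and 33.1 CPM in *Ebf2*E165X/+ mice 1, 2, and 3, without overlap and with a log2 fold change of −0.88 ± 0.323 (SE), which was −0.38 without *Ebf2*+/+ mouse 1. The other 3 were *Acsf3*, a mitochondrial malonyl-CoA synthetase (−0.42), *Prkag2*, a subunit of AMP-activated kinase (−0.29), and *Mlycd*, malonyl-CoA decarboxylase (−0.27), each a log2 fold change. *Stk11*, the kinase upstream of AMP-activated kinase, differed by −0.10 ± 0.079 (SE) on the log2 scale.

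**Figure D4:**
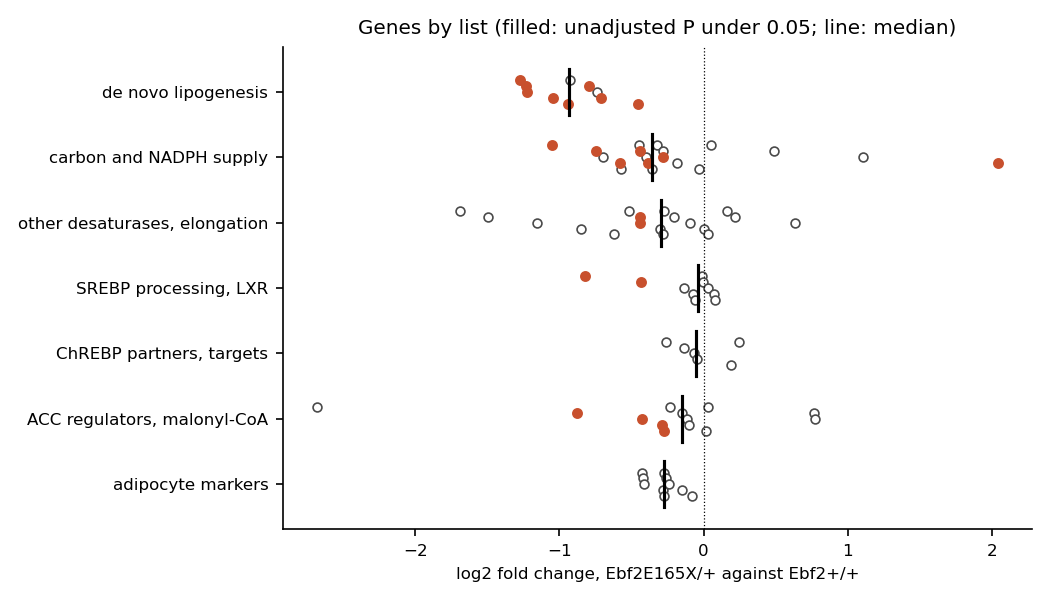
Log2 fold change (*Ebf2*E165X/+ against *Ebf2*+/+) of each gene in 7 lists, with filled red points for an unadjusted *P* under 0.05 by edgeR, open points for the rest, and a black line at the median. The lipogenesis genes all lie below 0 with a median of −0.93, against medians from −0.36 to −0.04 in the other lists drawn (the brown and beige markers, at −1.18, are not drawn), and the point farthest left, *Olah*, had at most 1 count in any library.

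Outside these lists, the 5 genes whose profile over the 6 libraries was most like the mean of the 10 lipogenesis genes were *Lss* (lanosterol synthase), *Agpat2* (an acylglycerolphosphate acyltransferase), *Pmvk* (phosphomevalonate kinase), *Dgat2* (a diacylglycerol acyltransferase), and *Cyp51* (lanosterol demethylase). Likeness was measured over the 6 libraries as the root mean square distance on the log2 scale, over the better covered genes. It was 0.051 for *Lss*, 0.08 for *Agpat2*, 0.11 for *Pmvk*, 0.119 for *Dgat2*, and 0.127 for *Cyp51*. *Agpat2* had 676, 335, and 455 CPM in *Ebf2*+/+ mice 1, 2, and 3 and 254, 318, and 245 CPM in *Ebf2*E165X/+ mice 1, 2, and 3. *Lss*, at 77.6, 30.8, and 40.4 CPM in *Ebf2*+/+ libraries and 22.9, 30.6, and 24.6 CPM in *Ebf2*E165X/+ libraries, repeated the near equality of mouse 2 in each genotype. Without *Ebf2*+/+ mouse 1 the log2 fold changes were −0.55 for *Agpat2* and −0.47 for *Lss*, against −0.84 and −0.93 with it. Because the measure selects genes that share the difference between genotypes, their fold changes are not further evidence of it.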

How the data were processed

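IWAT of 3 *Ebf2*+/+ and 3 *Ebf2*E165X/+ mice was analysed, 1 library per mouse. The deposited values are expected counts, which the authors estimated per gene and did not normalize. All 332946 were whole numbers, so that rounding changed none. The submitters' processing notes list cutadapt 4.8, FastQC 0.11.8, STAR 2.7.8a, RSEM 1.3.3, MultiQC 1.20, and the GRCm38 build. RSEM divides reads that map to several genes by estimate. The study's supplement describes 3′ mRNA libraries but the kit in the labels is a different one, so it is unclear whether counts scale with transcript length, and levels were not compared between genes. Where a gene with the most counts of a list is named, this is a choice of example by counts, not a ranking of transcript levels.

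Counts were analysed with edgeR 4.0.16 in R 4.3.3. The 32664 genes with 1 or more counts in some library entered the fit, with TMM scaling and the quasi-likelihood test of a single genotype term. Benjamini-Hochberg adjustment ran over all of them, and a call needed an adjusted *P* under 0.05 together with a linear fold change above 1.5. Log2 CPM used a prior count of 2. SE was the absolute log2 fold change divided by the square root of F. Groups do not overlap where the highest library of one is below the lowest of the other. Alternatives were DESeq2 1.42.0, limma-voom (limma 3.58.1), DESeq2's size factors, other filters on low counts, a replicate block, and each library left out. The fit was also run on simulated data, and no result given here rests on that run. Tables and plots were made with Python 3.11.15, numpy 2.4.6, pandas 2.3.3, and matplotlib 3.10.9. Positions come from GENCODE M21 and promoters from RefSeq, both on GRCm38. The symbol *Aldoa* has 2 identifiers, and the one with more counts was used.

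Named were the 10 lipogenesis genes, *Ebf2*, all adipocyte markers, the gene with the most counts in every other marker list, and in each related list every gene with an unadjusted *P* under 0.05, the largest difference among genes with 10 or more counts in each library, and the gene with the most counts. The 5 genes nearest in profile were added. The near-zero *Olah*, and *Srebf2*, *Scap*, *Nr1h3*, *Nr1h2*, *Krt5*, *Krt14*, *Krt8*, *Krt18*, *Cpt1b*, *Cox7a1*, *Ppargc1a*, and *Rai1*, are named outside this rule and were chosen after their values were seen. *Mir6922* is named only for its position. The lipogenesis genes and the lists were chosen with earlier results of these data known. The labels state no pairing by replicate number, and the main fit used none. *P* values measure the spread between 3 mice per genotype.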

Additional observations from a re-analysis of the deposited data

How the results depend on the processing

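Of 140 values of the 10 lipogenesis genes under other settings, 137 kept their direction and side of the threshold, *Acacb* and *Scd1* passed it under DESeq2, and *Acly* was at 0.02 (log2) in the libraries low in epidermal keratins, a setting chosen after the data were seen. With all 6 libraries the smallest adjusted *P* of the 10 by edgeR was 0.353, so staying uncalled says little. Sizes moved within the 137, as for *Me1*, from −0.92 to −0.26 (log2) without *Ebf2*+/+ mouse 1. DESeq2 called 98 genes in all and 2 of the 10, against 3 and 0 by edgeR, where 1557 genes had an unadjusted *P* under 0.05, 8 of them lipogenesis genes. With each library left out in turn, the count of all genes called ran from 1 (without *Ebf2*+/+ mouse 2) to 11 (without *Ebf2*E165X/+ mouse 3), the lipogenesis genes called stayed at 0, those with an unadjusted *P* under 0.05 ran from 2 (without *Ebf2*+/+ mouse 1) to 10 (without *Ebf2*+/+ mouse 2), with 4 without *Ebf2*E165X/+ mouse 1 and 3 without *Ebf2*E165X/+ mouse 3, those not overlapping ran from 5 to 10 (10 without mouse 2 of either genotype), and the median log2 fold change ran from −1.20 to −0.53. The libraries low in epidermal keratins leave 1 *Ebf2*+/+ library against 2, with the lone library assumed to vary like the others, too few for counts of calls to bear on stability. The median of the lipogenesis genes there was −0.19, with only the lowest *Ebf2*+/+ library for all 10 kept, and *Cidea* was at −3.2 (log2). Relative to adipocyte markers, also chosen after the data were seen, 0 of the 10 separated the genotypes. For *Acacb* and *Scd1* this rested on *Ebf2*E165X/+ mouse 3 alone. The cause of these shifts was not tested.

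With a replicate block, 5 of the 10 had an unadjusted *P* under 0.05, the median was −0.82, and 2 genes of the table were called. Deviations from the group means of same-numbered libraries correlated at 0.15, −0.28, and −0.16, and those of differently numbered libraries between −0.32 and 0.39. The labels state no pairing, and these correlations can neither show nor exclude one.

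Other named genes changed sign with a single library. Without *Ebf2*E165X/+ mouse 3, the log2 fold change was −0.62 for *Aldoa* (up to 0.85 with another library left out), 0.11 for *Cfd* (down to −0.24), 0.05 for *Cidec* (down to −0.47), −1.10 for *Me3* (up to 1.6), −1.31 for *Myh4* (up to 2.62), and 0.00 for *Pecam1* (down to −0.14). Without *Ebf2*+/+ mouse 2 it was −0.08 for *Col3a1* (up to 0.16) and −0.11 for *Hbb-bs* (up to 0.32), without *Ebf2*E165X/+ mouse 1 it was −0.35 for *Hbb-bs*, and without *Ebf2*+/+ mouse 3 it was 0.18 for *Txnip* (down to −0.36). In the libraries low in epidermal keratins it was 0.06 for *Lep* and 0.32 for *Scd2*.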

Other observations

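Values of markers of other cell types follow. *Cidea*, a lipid droplet protein of brown and beige fat, had the most counts of 10 brown and beige markers, and it passed the adjusted threshold, with 82.4, 102.5, and 106 CPM in *Ebf2*+/+ mice 1, 2, and 3 and 7.97, 9.61, and 13.2 CPM in *Ebf2*E165X/+ mice 1, 2, and 3. Its log2 fold change was −3.24 ± 0.202 (SE), with an adjusted *P* of 0.00462 by edgeR's quasi-likelihood test. Without *Ebf2*+/+ mouse 2 the adjusted *P* by edgeR was 0.0565, above the threshold, while the log2 fold change was −3.21. *Ebf2*+/+ mouse 1, the highest library for all 10 lipogenesis genes, was the lowest *Ebf2*+/+ library for *Cidea*.

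The genes with the most counts in the remaining lists are given last. On the log2 scale the difference was 0.36 ± 0.184 (SE) for the B cell gene *Ms4a1* (0.14 without *Ebf2*+/+ mouse 1), 0.13 ± 0.140 (SE) for the macrophage gene *Lyz2*, −0.07 ± 0.11 (SE) for the endothelial gene *Pecam1*, 0.07 ± 0.259 (SE) for the fibroblast collagen *Col3a1*, and 0.08 ± 0.332 (SE) for the globin *Hbb-bs*. *Krt5*, a basal keratin, ran from 1 count in *Ebf2*E165X/+ mouse 3 to 6043 counts in *Ebf2*+/+ mouse 1, and *Krt10* from 2.7 to 65.2 CPM in the same libraries.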
